A study of Mus musculus with 76 samples.

Results

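Of the 34 neurons labelled Ghost among the 76 Patch-seq libraries of the series, 13 held at least 1 read count of *Npy* and 21 held none. The sets were chosen by this measured value, the raw *Npy* count, so the *Npy* values below describe the choice and support nothing. The labels name no mouse, and each label and diet therefore counts as 1 sample of cells. Every difference below is a description of these cells without a test, and intervals on shares are exact Clopper-Pearson intervals at 95% that cover counting error only.

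In Patch-seq the content of a neuron is aspirated through the pipette after its electrical recording, and 1 library is made from it. The cells came from hypothalamic tissue of male PomcCreERT2;tdTomato;Pomc-eGFP mice, given tamoxifen at 12 weeks of age and then fed a chow diet (CD) or a high-fat diet (HFD) for 6 months, with 5 mice on each. In these mice the *Pomc* promoter drives both a tamoxifen-dependent Cre, which leaves a lasting tdTomato label in cells where it was active at the time of tamoxifen, and an eGFP that shows where it is active at the recording. All cells carry the tdTomato label, Ghost cells lack the eGFP signal and Pomc+ cells have it, as judged from fluorescence, and a cell whose tracing or eGFP failed cannot be told from a true one by the label. The methods name the mice without Pomc-eGFP, so this allele rests on the account of the results alone. The 34 Ghost cells comprise 15 on CD and 19 on HFD, and the 42 Pomc+ cells comprise 23 on CD and 19 on HFD.

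Pro-opiomelanocortin (POMC) is cut into melanocortin peptides that lower food intake, and many arcuate Pomc neurons also make the peptide CART from *Cartpt*. Neuropeptide Y (NPY) and agouti-related peptide (AgRP) are made by a neighbouring arcuate population that raises food intake, AgRP by blocking melanocortin receptors and NPY through its own receptors. Both populations are known to share Pomc-expressing progenitors during development.

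*Npy* (ENSMUSG00000029819) was held by 38.2% of the Ghost cells (22.2% to 56.4%), and the set came from both diets, with 6 of 15 cells on CD and 7 of 19 on HFD. In counts per 1000000 counts of the cell (CPM), its level in the 13 cells ran from 7.71 through a median of 72.6 to 480. The levels were far apart within the set, with 6 cells above 200 CPM and 7 below 100 CPM. Just inside the threshold lay HFD cell 694 with 2 counts of *Npy*, HFD cell 715 with 3 and HFD cell 656 with 4, and just outside it lay the 21 cells with 0. Of the 13 cells, 8 held 10 or more counts, which is 23.5% of all Ghost cells.

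A count of 0 does not mean the same in every cell. In 13 of the 21 cells without *Npy*, 3 counts, the limit that a count of 0 allows, correspond to more CPM than the lowest level in the other set, in 5 to more than its median of 72.6 CPM and in 1 to more than its highest level. With every cell drawn down to 40000 counts, which leaves out 5 cells without *Npy* and 0 with it, 12 of 29 cells held *Npy* in the draw used here and 10.4 would on average over all draws. Without the 7 genes that have a count in each of the 76 cells, and at 10000 counts per cell, it was 9 of 32 cells in the draw and 9.21 on average.

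The sets also differed in composition, and this shift touches every ratio given below. Total counts had a median of 256265 in cells with *Npy* (68413 to 1186812) and of 328931 in cells without (4057 to 1306718). The 7 genes counted in every cell took a median of 54.9% of the counts with *Npy* and 36% without, most of it in ENSMUSG00000119584, which has no symbol in the table used, with 46.9% and 30.2%, and in *Lars2* with 9.22% and 5.88%. Mitochondrial transcripts took a median of 0.591% of counts with *Npy* and 1.10% without, and ribosomal protein genes 3.39% and 2.35%. The number of genes with a count had a median of 2652 with *Npy* and 2330 without, and at 40000 counts per cell, where 13 and 16 cells remained, it was 2078 and 2223. A draw to 40000 counts equalises the total only, and the larger part taken by the 7 genes leaves fewer counts for all other genes in the cells with *Npy*.

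Over the 8972 genes that reached 5 counts in 3 or more Ghost cells, the median ratio of mean CPM, with *Npy* over without, was 0.700, or -0.51 on the log2 scale. It was 0.935 (-0.10) in CPM without the 7 genes and 0.461 (-1.12) in the deposited normalized values, so the direction of a gene is read against this level. At least 2-fold higher with *Npy* were 1432 of these genes, or 16%, and at least 2-fold lower 3468, or 38.7%. The higher genes were thus 29.2% of all genes past 2-fold in CPM, 44.2% in CPM without the 7 genes and 13.1% in the normalized values. In the share of cells with a count at 40000 counts per cell, 1.46% of the genes were at least 25 percentage points higher with *Npy* and 8.93% at least 25 points lower.

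**Figure D1:**
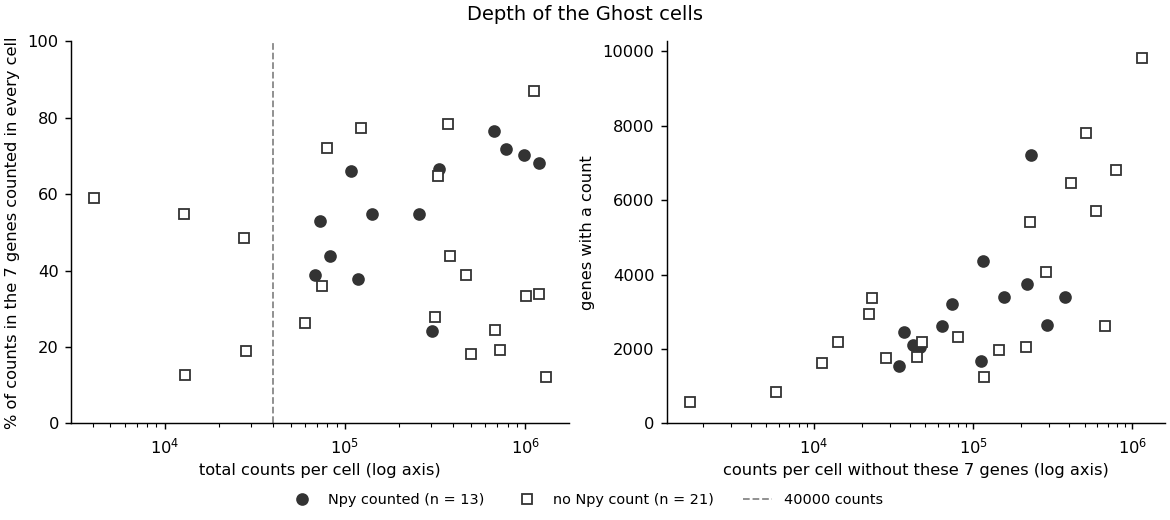
Depth of the 34 Ghost cells. Left, total counts per cell (log axis) against the percentage of counts in the 7 genes counted in every cell of the series, with a dashed line at 40000 counts. Right, counts per cell without these genes (log axis) against the number of genes with a count. Each point is 1 cell, filled with *Npy* (n = 13) and open without (n = 21), and 5 open but 0 filled points lie below 40000 counts.

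*Agrp* (ENSMUSG00000005705), the gene of the peptide that NPY neurons co-release, had a count in 4 of 13 cells with *Npy*, or 30.8% (9.09% to 61.4%), and in 2 of 21 without, or 9.52% (1.17% to 30.4%). With *Npy* it lay at 205 CPM in HFD cell 694, at 102 in CD cell 691, at 63.9 in CD cell 636 and at 33 in HFD cell 671, and at 0 in the other 9 cells. Without *Npy* it lay at 2.12 CPM, from 1 count, in HFD cell 697, at 25.1, from 2 counts, in HFD cell 720 and at 0 in the other 19. The 4 cells with both genes thus stood above every cell without *Npy*, while most cells of either set had no *Agrp* count at all.

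The mean of *Agrp* was 31 CPM with *Npy* and 1.30 without, a ratio of 23.9. As the sets hold 99 and 3 counts of it, the ratio of summed counts per summed total was 57.1 with a counting interval of 19 to 281. CD cell 636 alone held 63 of the 99 counts. The interval treats reads as independent and does not cover the spread between cells. *Agrp* was higher with *Npy* in every setting tried, between a ratio of 13.05 without the 7 genes and 27.4 in the normalized values. It was 12.8 without HFD cell 694, which held the highest *Agrp* level, and 292 without HFD cell 720. On CD the 9 cells without *Npy* held 0 counts and were set at 3 counts over their summed counts, which gave a ratio of 16.7. This value is no lower bound, as the mean of CPM per cell can lie above that limit in shallow cells. On HFD the ratio was 15. The 4 cells with *Agrp* had a median *Npy* level of 189 CPM and the 9 cells without it 39 CPM, with overlapping values, since HFD cell 694 with the highest *Agrp* held only 29.2 CPM of *Npy*.

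**Figure D2:**
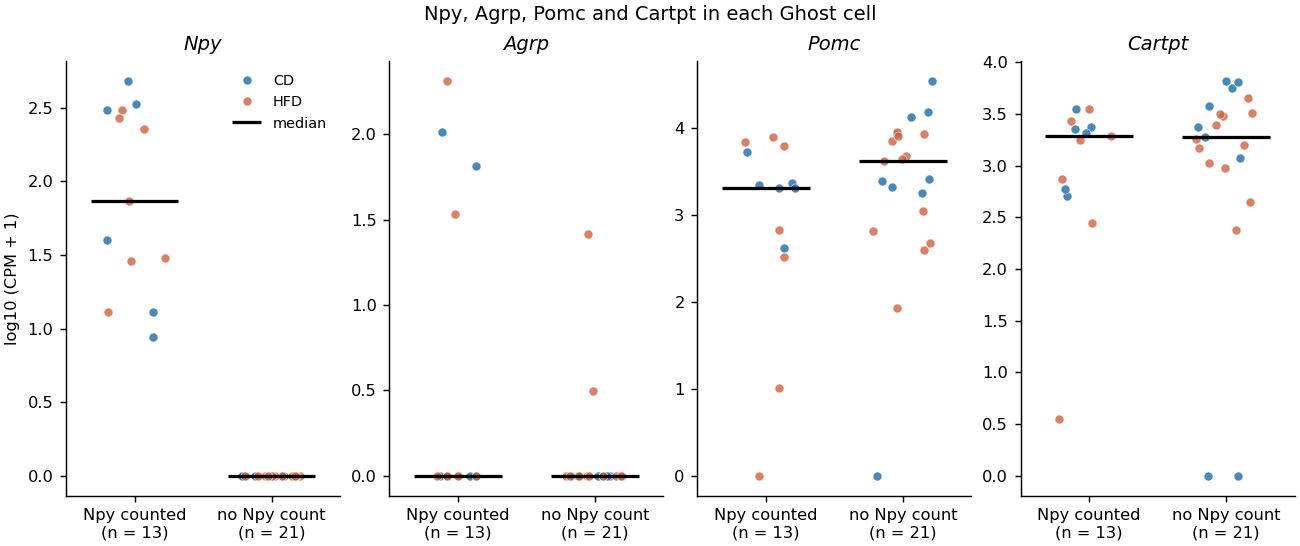
*Npy*, *Agrp*, *Pomc* and *Cartpt* in each Ghost cell, as log10 (CPM + 1), with the 13 cells with a *Npy* count beside the 21 without. Points are cells, blue on CD and orange on HFD, bars are medians, and each panel has its own axis. *Npy* separates the sets because they were chosen by it, 4 cells with *Npy* hold more *Agrp* than any cell without, and the 7 highest *Pomc* levels are in cells without *Npy*.

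*Pomc* (ENSMUSG00000020660) was found in 12 of 13 cells with *Npy* and in 20 of 21 without. Its level ran from 0 in HFD cell 656 through a median of 2042 to 7870 CPM in HFD cell 671 with *Npy*, and from 0 in CD cell 712 through 4171 to 34418 CPM in CD cell 687 without. The lower parts of both ranges overlapped, with 5 cells under 1000 CPM in each set, whereas 7 of the 21 cells without *Npy* stood above the highest cell with it. Among these 7, HFD cell 657, CD cell 659 and CD cell 711 were shallow, with 12900, 28362 and 27715 counts. There 3 counts correspond to 233, 106 and 108 CPM, above the median *Npy* level of 72.6 CPM in the other set. The 2 cells at 0 were not alike in depth, because 3 counts correspond to 8.99 CPM in HFD cell 656 and to 739 CPM in CD cell 712.

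The mean of *Pomc* was 2772 CPM with *Npy* and 6116 without, a ratio of 0.453, which lies 0.63 below the median of all genes on the log2 scale. The ratio stayed below 1 in each setting tried, and without CD cell 687 it was 0.590. The diets differed in how far *Pomc* lay from the other genes. On CD the ratio was 0.266, against a median of 0.484 for all genes, and on HFD it was 0.775, against 0.764. This difference between the diets was not tested. High *Pomc* levels occurred in both sets, with more than 4000 CPM in 4 cells with *Npy* and 11 without.

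The cell numbers in the labels run in 8 blocks of 1 diet each, whose meaning the labels do not give. Cells with *Npy* were 3 of 3 Ghost cells in the first block, 2 of 11 in the second, 1 of 4 in the third, 1 of 1 in the fourth, 2 of 4 in the fifth, 3 of 4 in the sixth, 0 of 4 in the seventh and 1 of 3 in the eighth. The sets are thus spread unevenly over the blocks. Within the 5 blocks that hold both sets, *Pomc* was lower with *Npy* in 5 of 5 and its ratio was 0.292, against a median of 0.643 for all genes. In the third, sixth and eighth blocks 1 of the sets held only 1 cell. *Agrp* was higher in 2 and lower in 1 of these 5 blocks, with a ratio of 16.2.

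*Cartpt* (ENSMUSG00000021647) lay in its mean where the other genes lay. It ran from 2.53 through a median of 1934 to 3504 CPM with *Npy* and from 0 through 1881 to 6587 CPM without. The ratio of its means, 1706 and 2466 CPM, was 0.692 against the 0.700 of all genes, and the ratio of its medians was 1.03. Leaving out any 1 cell kept the ratio of means between 0.631 and 0.755.

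**Figure D3:**
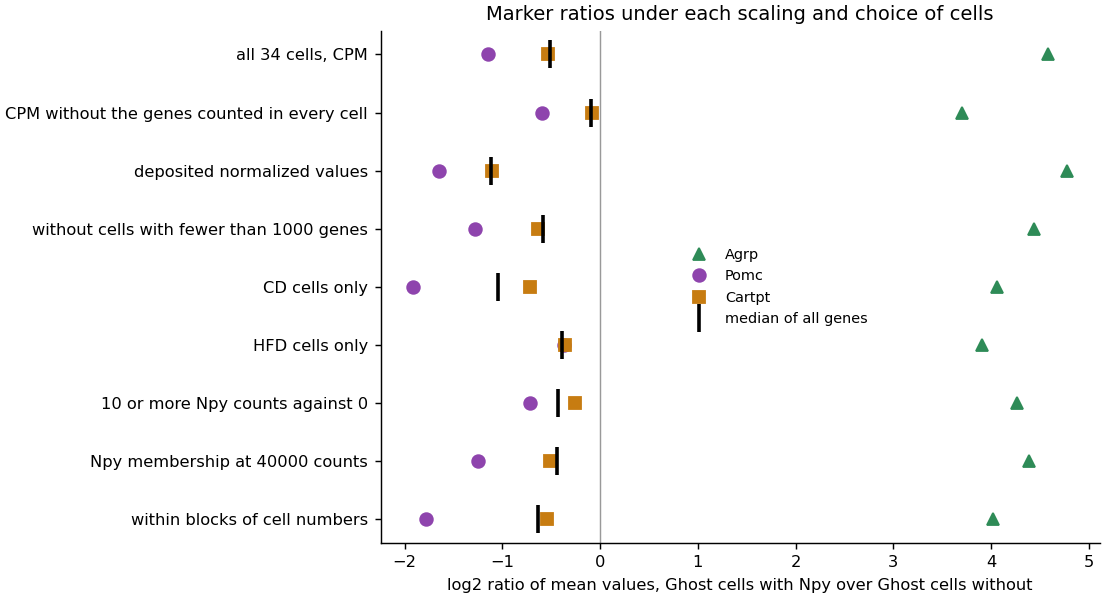
Log2 ratio of mean values, Ghost cells with *Npy* over Ghost cells without, for *Agrp*, *Pomc* and *Cartpt* under each scaling and choice of cells, with the median of all genes passing the filter as a black bar. *Agrp* lies right of 0 in each row, *Pomc* lies left of the median of all genes except on HFD, where it lies beside it under the *Cartpt* symbol, and *Cartpt* lies near that median, farthest to its right on CD. The *Agrp* value on CD rests on a limit for the cells without *Npy*, which held no count there, and is no lower bound.

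The other genes known for AgRP neurons were thinly counted. Of the 7 genes of that list besides *Npy*, 5 passed the filter. Of these, 3 were at least 2-fold higher with *Npy*, against 16% of all genes, and 1 at least 2-fold lower, against 38.7%. *Corin*, which encodes a protease, had no count in any Ghost cell. Besides *Agrp* the higher ones were *Acvr1c*, an activin-type receptor, in 3 cells with *Npy* and 2 without, and *Gpr83*, an orphan-class receptor, in 2 and 2. These were named after their values were seen. Without HFD cell 698 the *Gpr83* ratio went from 3.28 to 0.0527, and without CD cell 690 the *Acvr1c* ratio went from 3.51 to 1.65. *Otp*, a transcription factor of developing AgRP neurons, was the lower one, in 3 of 13 cells with *Npy* and in 10 of 21 without, with means of 17.3 and 37.9 CPM. Its ratio of 0.456 became 0.0663 without HFD cell 652. Without CD cell 659 it was 0.721, near the 0.700 of all genes with every cell kept. On HFD it was 1.22. The list median was 1.71 on the log2 scale, against -0.51 for all genes, and -0.048 on CD, against -1.05. It lay above that of all genes in 9 of 9 settings. Without HFD cell 698 it was -0.83, so its sign rested on that single cell.

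The receptors of NPY are made in part by Pomc neurons, which NPY can silence. *Npy1r*, of the Y1 receptor, had a count in 5 of 13 cells with *Npy* and in 11 of 21 without, and its level ran from 0 through 0 to 330 CPM and from 0 through 3.83 to 867 CPM. Its means of 36.8 and 128 CPM gave a ratio of 0.287, which was 0.403 without CD cell 668 and 0.0962 without HFD cell 671. *Npy2r*, of the Y2 receptor that acts on NPY terminals, was counted in 2 and 6 cells with means of 7.23 and 29.9 CPM. Its ratio was 0.242, and it was 0.0552 without CD cell 690 and 0.379 without CD cell 659. *Npy5r*, of the Y5 receptor, was counted in 4 of 13 and 3 of 21 cells with means of 21.3 and 12.2 CPM. At 40000 total counts *Npy1r* was found in 4 of 13 cells with *Npy* and 8 of 16 without, *Npy2r* in 0 and 3, and *Npy5r* in 4 and 2, so their intervals overlapped widely. *Npy4r* and *Npy6r* had no count in any Ghost cell.

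The 39 genes that the study took from a hypothalamic atlas as typical of Pomc neurons include *Pomc* and *Cartpt*. Of these, 34 passed the filter, 18 of them at least 2-fold lower with *Npy*, against 38.7% of all genes, and 4 at least 2-fold higher, against 16%. The median ratio was 0.438, or -1.19 on the log2 scale, against -0.51 for all genes. It lay below that of all genes in 8 of 9 settings, the exception being the CD cells alone with -0.93 against -1.05. Between cells with 10 or more *Npy* counts and cells with 0 it lay close to all genes, at -0.58 against -0.43. There 13 of the 34 were at least 2-fold lower, against 3451 of 8969 genes, and 4 higher, against 1733. In the share of cells at 40000 total counts, 4 of the 34 were at least 25 points lower and 0 higher, against 8.93% and 1.46% of all genes.

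**Figure D4:**
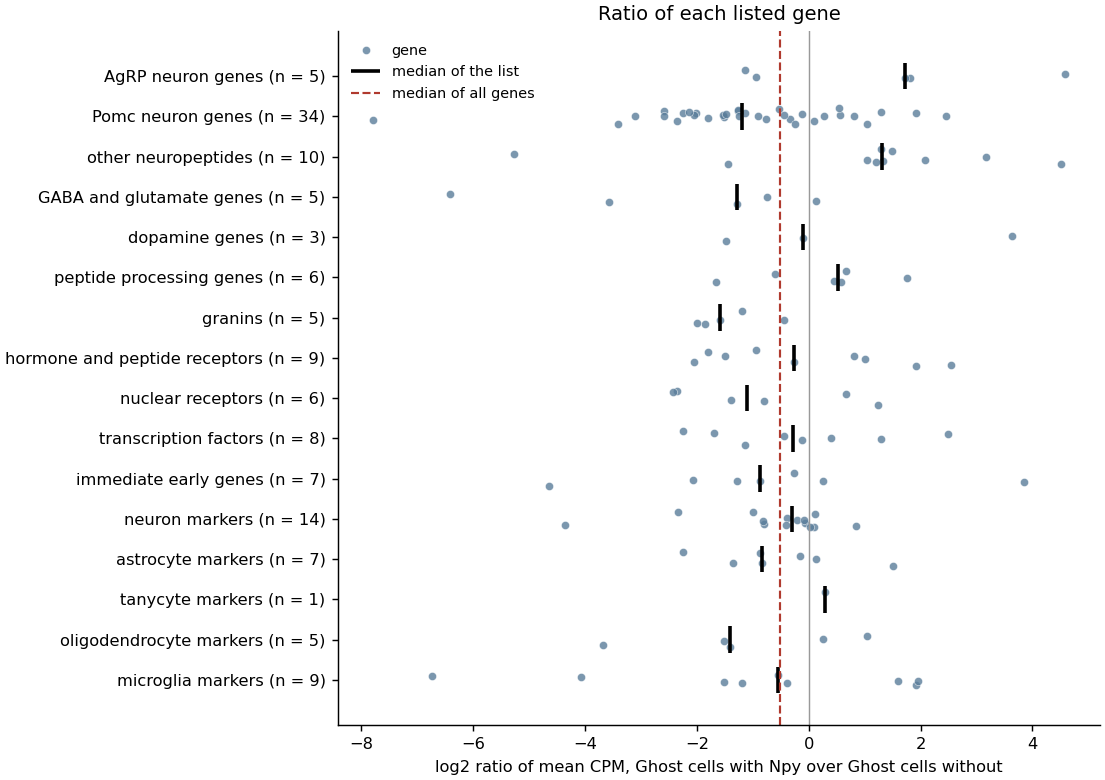
Log2 ratio of mean CPM, Ghost cells with *Npy* over Ghost cells without, for each listed gene that passed the filter. Points are genes, black bars are the median of each list, and the dashed line is the median of all genes at -0.51. Of the neuropeptide genes 8 of 10 lie right of 1, and of the Pomc neuron genes 18 of 34 lie left of -1 and 4 right of 1. The shares over all genes are 16% at 1 or above and 38.7% at -1 or below.

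Among the named Pomc neuron genes on the lower side, *Npy1r* is described above. *Gpr101*, an orphan receptor, had means of 3.41 CPM in 3 cells with *Npy* and 36.2 CPM in 7 cells without, and *Prdm12*, a transcription factor that Pomc neurons need to mature, 5.0 CPM in 3 and 23.9 CPM in 7. *Ctsz*, a lysosomal protease, lay at 48.6 and 140 CPM in 4 and 10 cells, *Sncg*, of gamma-synuclein, at 61.7 and 177 CPM in 7 and 8, and *Shisal2b* at 32.6 and 78.2 CPM in 3 and 8. The ratios of *Sncg* and of *Ptprm*, a receptor phosphatase in 2 and 8 cells, were 1.0 and 1.19 on HFD alone. With 1 cell left out, the ratio of *Gpr101* was 0.0260 without HFD cell 671 and 0.167 without CD cell 659, that of *Prdm12* 0.0540 without HFD cell 698, that of *Ctsz* 0.198 without HFD cell 656, that of *Sncg* 0.189 without HFD cell 652 and that of *Shisal2b* 0.0894 without CD cell 691. In the other direction that of *Prdm12* was 0.262 without CD cell 709 and that of *Ctsz* 0.460 without CD cell 687. That of *Sncg* was 0.489 without CD cell 668. That of *Shisal2b* was 0.604 without CD cell 659, no longer past 2-fold. These ratios stayed below 1 with any 1 cell left out. On the higher side, *Stk32a*, a kinase gene, had means of 115 and 20.9 CPM in 6 of 13 and 9 of 21 cells, with and its ratio of 5.49 was 3.27 without HFD cell 694, 8.45 without HFD cell 653, 6.08 on CD and 5.44 on HFD. *Tbx3*, a transcription factor of arcuate Pomc neurons, was counted in 6 and 6 cells with means of 34 and 13.8 CPM. Its ratio of 2.46 was 1.27 without HFD cell 715 and 0.95 in the normalized values. The higher ratio of *Lepr*, the leptin receptor gene, rested on 2 cells in each set and was 0.857 without CD cell 691.

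Other neuropeptide genes had higher means beside *Npy*. Of the 21 listed, 10 passed the filter, and 8 of these were at least 2-fold higher with *Npy*, against 16% of all genes, and 2 at least 2-fold lower, against 38.7%. In the share of cells at 40000 counts, 3 of the 10 were at least 25 points higher, against 1.46% of all genes. These 3 were *Avp*, *Oxt* and *Sst*.

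*Avp* (ENSMUSG00000037727), which encodes vasopressin, had a count in 10 of 13 cells with *Npy* and in 8 of 21 without. Its level ran from 0 through a median of 109 to 617 CPM with *Npy* and from 0 through 0 to 397 CPM without. The sets overlapped, and 3 cells with *Npy* and 13 cells without were at 0. The means of 221 and 78.8 CPM gave a ratio of 2.81, with 3.33 on CD, 2.23 on HFD and 2.39 without CD cell 664. With 40000 counts in each cell it was counted in 76.9% (46.2% to 95.0%) of cells with *Npy* and 37.5% (15.2% to 64.6%) of cells without.

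*Oxt* (ENSMUSG00000027301), of oxytocin, had a count in 10 of 13 cells with *Npy* and in 10 of 21 without, with medians of 58.5 and 0 CPM and highest levels of 612 and 353 CPM. Its means of 131 and 56.6 CPM gave a ratio of 2.31, which was 1.03 on CD, 3.84 on HFD and 1.60 without HFD cell 715. *Sst* (ENSMUSG00000004366), of somatostatin, was counted in 8 of 13 and 8 of 21 cells, with medians of 21.9 and 0 CPM and highest levels of 530 and 598 CPM, so its ranges overlapped fully. At 40000 counts per cell these were 8 of 13 and 3 of 16 cells. The *Sst* ratio of 2.45 was 13.1 on CD, 1.09 on HFD, 1.63 without CD cell 636 and 6.86 without HFD cell 643. At least 1 of *Avp*, *Oxt* and *Sst* was counted in 13 of 13 cells with *Npy* and in 13 of 21 without, and all 3 in 6 and 5 cells. As these genes were picked by their shares in this contrast, the joint count describes the choice. It was taken at full depth, where 5 cells without *Npy* and 0 with it have under 40000 counts.

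The further neuropeptide genes past 2-fold rested on few cells. These were named after their values were seen. *Gal*, of galanin, was found in 3 and 4 cells with a ratio of 4.22 that was 1.71 without CD cell 636. *Ghrh*, of growth hormone-releasing hormone, was in 2 cells of each set with a ratio of 22.7 that was 5.74 without CD cell 635, and *Tac2*, of neurokinin B, in 2 of each with 9.01 that was 4.76 without HFD cell 652. *Nucb2*, of nesfatin, and *Pdyn*, of dynorphin, had ratios of 2.50 and 2.06, which were 1.42 without CD cell 690 and 1.31 without HFD cell 671. On CD alone the *Tac2* ratio was 0.105. The 2 lower genes were *Hcrt*, of the orexins, with no count with *Npy* and counts in 4 cells without, and *Trh*, of thyrotropin-releasing hormone, in 1 and 2 cells with 2.57 and 7.01 CPM. The list median was 1.31 on the log2 scale, against -0.51 for all genes, and it lay above that of all genes in 9 of 9 settings. Within the 5 blocks that hold both sets, 3 of the 9 genes with a ratio were at least 2-fold higher and 3 at least 2-fold lower. Over all genes these were 1925 and 3889 of 8906. *Avp* and *Oxt* were higher with *Npy* in 3 and lower in 2 of these blocks.

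**Figure D5:**
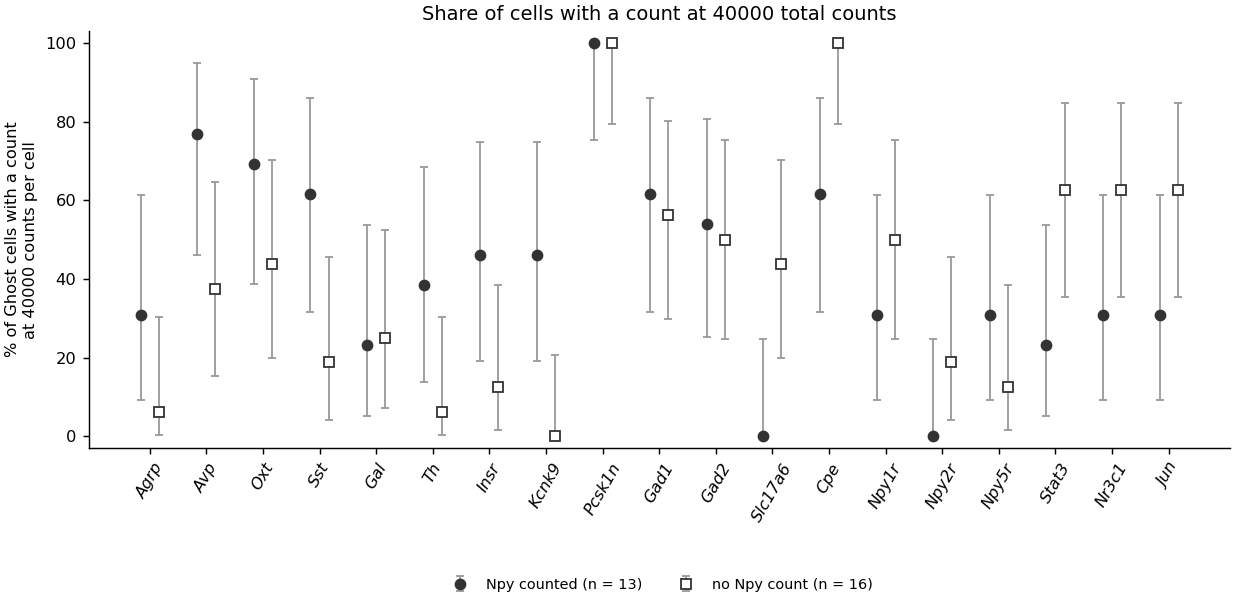
Percentage of Ghost cells with a count of each gene after every cell was drawn down to 40000 counts, filled for the 13 cells with *Npy* and open for the 16 cells without, with exact 95% intervals that cover counting error only. *Avp*, *Sst*, *Th*, *Insr* and *Kcnk9* lie higher with *Npy*, *Slc17a6*, *Cpe*, *Stat3*, *Nr3c1* and *Jun* lie lower, and *Gad1*, *Gad2* and *Pcsk1n* lie near each other in both sets.

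With 30000 counts outside the 7 genes in each cell, a setting added after seeing the data that keeps 13 cells with *Npy* and 14 without, the shares were computed as the average over all draws. *Avp* was then counted in 74.96% of cells with *Npy* and 29.96% without, *Oxt* in 75.5% and 45.4%, *Sst* in 57.97% and 35.3%, *Th* in 42.1% and 13.9%, *Insr* in 45.9% and 19.7% and *Kcnk9* in 49.3% and 1.11%. On the lower side *Slc17a6* was counted in 0% and 48.6%, *Stat3* in 26.2% and 63.8%, *Nr3c1* in 30.97% and 64.8%, *Jun* in 38.04% and 59.6% and *Cpe* in 61.2% and 99.99%. Each of these genes thus lay on the same side as at 40000 total counts, and the difference for *Sst* was 22.7 points against 42.8.

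The glutamate transporter gene of these neurons was counted only in Ghost cells without *Npy*, and the GABA genes in both sets. Of the 8 listed genes of GABA and glutamate 5 passed the filter, 0 of them at least 2-fold higher and 3 lower, against 16% and 38.7% of all genes, with a list median of -1.28 on the log2 scale against -0.51. *Slc17a6* (ENSMUSG00000030500), which encodes the vesicular glutamate transporter of hypothalamic neurons, had no count in the 13 cells with *Npy*, which allows a share of up to 24.7% by the exact interval, and a count in 9 of 21 cells without, or 42.9% (21.8% to 66%). In these 9 cells it reached 572 CPM, in HFD cell 649, and at 40000 counts per cell it was found in 0 of 13 and 7 of 16 cells. Where the cells stood in the numbering moved with this result. The second block, HFD cells 637 to 657, held 7 of the 9, out of 9 cells without *Npy* there, and 0 of its 2 cells with *Npy*. In the other blocks *Slc17a6* was counted in 2 of 12 cells without *Npy* and 0 of 11 with it. The part of the block in this difference was not tested.

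*Gad1* and *Gad2*, which encode the enzymes that make GABA, were found in similar numbers of cells. *Gad1* was in 9 of 13 cells with *Npy* and 13 of 21 without, with medians of 39.6 and 79.2 CPM and means of 268 and 245 CPM, and HFD cell 694 held the highest level with *Npy*, 1754 CPM. Without this cell the *Gad1* ratio of 1.09 was 0.588, and in the normalized values it was 0.694. *Gad2* was in 8 of 13 and 13 of 21 cells, with medians of 41.1 and 61.6 CPM. Its means of 178 and 433 CPM gave a ratio of 0.411, which was 0.856 without CD cell 712, a cell of 4057 counts in all. At least 1 of the 2 genes was counted in 12 of 13 cells with *Npy* and in 15 of 21 without, and together with *Slc17a6* in 0 and 8 cells. *Slc32a1*, of the vesicular GABA transporter, was counted in 2 and 1 cells. *Slc17a7* was counted in 2 and 3 cells and *Slc17a8* in 0 and 1.

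Of the 5 dopamine genes 3 passed the filter, 1 at least 2-fold higher and 1 lower, against 16% and 38.7% of all genes. Their median was -0.09 on the log2 scale. *Th*, of tyrosine hydroxylase, which makes the precursor of dopamine, had a count in 6 of 13 cells with *Npy* and 3 of 21 without. Its highest levels were 564 CPM in HFD cell 671 and 137 CPM in CD cell 661. The means of 88.2 and 7.15 CPM gave a ratio of 12.3, which was 6.80 without HFD cell 671 and 137 without CD cell 661. At 40000 total counts it was found in 5 of 13 and 1 of 16 cells. *Ddc*, of the next enzyme, was in 4 and 6 cells with a ratio of 0.936, *Slc18a2*, of the vesicular monoamine transporter, in 1 and 4, and *Slc6a3*, of the dopamine transporter, in 0 and 1. *Insr*, of the insulin receptor, was likewise in 6 of 13 and 3 of 21 cells, with means of 53.4 and 9.13 CPM and a ratio of 5.84, which was 5.20 on CD, 6.63 on HFD and 8.85 without HFD cell 637. Without CD cell 636 the *Insr* ratio was 4.65. *Th* and *Insr* were counted in fewer than 10 Ghost cells and were named after their values were seen.

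The enzymes and granins of secretory granules, in which peptides are cut and stored, did not move as 1 group. Of the 7 processing genes 6 passed the filter, 1 at least 2-fold higher and 1 lower, against 16% and 38.7% of all genes. Their median was 0.51 on the log2 scale. *Cpe* (ENSMUSG00000037852), of the carboxypeptidase that trims peptide ends, was counted in 8 of 13 cells with *Npy* and in 20 of 21 without. It ran from 0 through a median of 46.4 to 648 CPM with *Npy* and from 0 through 637 to 3023 CPM without, and its ratio of 0.316 was 0.339 in CD cells, 0.302 in HFD cells and 0.383 without HFD cell 657. At 40000 counts per cell it was found in 61.5% (31.6% to 86.1%) and 100% (79.4% to 100%) of cells. Within the 5 blocks with both sets it was lower with *Npy* in 4 and higher in 1. *Pcsk1n*, of an inhibitor of a prohormone convertase, was instead found in 13 of 13 and 18 of 21 cells with medians of 804 and 565 CPM. The convertase gene *Pcsk1* was in 6 cells of each set, and its ratio of 3.37 was 0.942 without CD cell 664 and 0.692 on HFD.

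Of the 5 granin genes 4 were at least 2-fold lower with *Npy*, against 38.7% of all genes, and 0 higher. *Chga* had means of 35.5 and 107 CPM, *Chgb* of 72.4 and 261 CPM, *Scg2* of 241 and 548 CPM and *Vgf* of 38.5 and 154 CPM. The shares of cells were closer, with *Scg2* counted in 9 of 13 and 11 of 21 cells, *Vgf* in 8 and 13, *Chgb* in 5 and 10 and *Chga* in 4 and 9, so the difference in the mean lay in the highest cells without *Npy*. Without HFD cell 657, a cell of 12900 counts, the *Chgb* ratio of 0.278 was 0.510, and without CD cell 687 the *Vgf* ratio of 0.251 was 0.412. In the other direction the *Chgb* ratio was 0.147 without HFD cell 698 and the *Vgf* ratio 0.138 without CD cell 664. The list median was -1.59 on the log2 scale in CPM and -0.78 in CPM without the 7 genes. There 2 of the 5 were at least 2-fold lower, against 2812 of 8965 genes.

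Among receptors and regulators of hormone response, the ratio of *Stat3* lay low with *Npy* on each diet and that of *Nr3c1* on CD. *Nr3c1*, of the glucocorticoid receptor, was in 5 of 13 and 14 of 21 cells with means of 18.4 and 48.1 CPM. *Stat3*, which carries the leptin signal to the nucleus, was in 4 and 12 cells with medians of 0 and 57.3 CPM, with a ratio of 0.303 for CD and 0.312 for HFD cells. At 40000 total counts *Nr3c1* was found in 4 of 13 and 10 of 16 cells and *Stat3* in 3 and 10. *Prlr*, of the prolactin receptor, was in 3 and 8 cells with 21.3 and 59.99 CPM. Leaving out 1 cell took the ratio of *Nr3c1* from 0.383 to 0.213 (CD cell 690), of *Stat3* from 0.310 to 0.168 (HFD cell 671) and of *Prlr* from 0.355 to 0.157 (CD cell 690). In the other direction they became 0.487 (CD cell 668), 0.383 (HFD cell 649) and 0.435 (CD cell 659). *Nr3c1* was at 0.248 on CD, against a median of 0.484 for all genes, and at 0.781 on HFD, against 0.764. Over all genes 38.7% were at least 2-fold lower and 16% higher. Of the 6 nuclear receptor genes that passed the filter 3 were at least 2-fold lower and 1 higher, and of the 9 hormone and peptide receptor genes 3 were lower and 3 higher, with list medians of -1.10 and -0.26 on the log2 scale. Of the 8 transcription factors 3 were lower and 2 higher, with a median of -0.29. Of the 7 immediate early genes, which follow neuronal activity, 3 were lower and 1 higher, with a median of -0.88. Among the lower ones were *Jun*, in 6 and 11 cells with 15.7 and 65.6 CPM, and *Egr1*, in 4 and 9 cells with 36.8 and 89.1 CPM and a ratio of 0.413 that was 0.142 without HFD cell 671. Without HFD cell 649 the *Egr1* ratio was 0.542, no longer past 2-fold.

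Outside the lists, 3786 genes were eligible to be named, of which 300 were higher and 1109 lower with *Npy* on each diet, with any 1 cell left out, at 40000 total counts and without the 7 genes. The following 16 genes were taken from the ends of that ranking by the contrast itself, so their values describe the choice. The 8 highest were *Senp5*, *Ssx2ip*, *Kcnk9*, *Igfbp5*, *Cir1*, *Rae1*, *Parp6* and *Phf23*, with ratios from 7.70 to 15.6 that ran from 2.87 to 365.5 with any 1 cell left out. *Kcnk9*, of a leak potassium channel that sets the resting potential, was counted in 7 of 13 cells with *Npy* and 3 of 21 without, with means of 63.9 and 5.32 CPM, and without CD cell 664 its ratio of 12 was 4.64. *Igfbp5*, of a binding protein of insulin-like growth factors, was in 8 and 5 cells with 25.4 and 2.38 CPM, and without HFD cell 694 its ratio of 10.7 was 2.87. *Senp5*, a protease gene of SUMO conjugates, was in 6 and 5 cells with 100.1 and 6.43 CPM, and *Rae1*, of an mRNA export factor, in 4 and 6 with 88.0 and 9.73 CPM. Every one of the 8 had its highest level in a cell with *Npy*, but in 5 to 9 of the 13 cells with *Npy* it was at 0.

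The 8 lowest were *Ntrk3*, *Pcdh19*, *Brd7*, *Kantr*, *Clasp1*, *Pde4b*, *Dync1li2* and *Dnmt1*. Each was counted in 1 or 2 cells with *Npy*, at no more than 9.90 CPM, and in 9 to 11 cells without, and the ratios ran from 0.00165 to 0.0324 with any 1 cell left out. *Ntrk3*, of a neurotrophin receptor, had means of 0.43 and 85.0 CPM, *Pcdh19*, of a cell adhesion protein, of 0.65 and 106 CPM, and *Pde4b*, of an enzyme that degrades cyclic AMP, of 0.539 and 40.7 CPM. With 40000 counts in each cell all 8 were found in 0 of the 13 cells with *Npy* and in 4 to 8 of the 16 without.

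The summed levels of the markers of other cells overlapped between the sets, while the direction of the glial lists depended on the cells compared. The summed level of the 14 neuron markers ran from 1048 through 2083 to 4697 CPM with *Npy* and from 267 through 3411 to 6270 CPM without. Of these markers 14 of 14 passed the filter, 0 of them at least 2-fold higher and 3 lower, against 16% and 38.7% of all genes. Their median was -0.30 on the log2 scale. The summed microglia markers ran from 0 through 9.90 to 8748 CPM with *Npy* and from 0 through 361 to 10233 CPM without, the astrocyte markers from 0 through 181 to 2165 and from 0 through 255 to 1667 CPM, and the oligodendrocyte markers from 1.01 through 195 to 705 and from 0 through 411 to 1267 CPM. The tanycyte sum had medians of 27.4 and 9.94 CPM. Oligodendrocyte precursor markers were at 0 in all 34 cells, and endothelial markers were at 0 in all but 1 cell without *Npy*. Of the astrocyte markers that passed the filter 1 was at least 2-fold higher and 2 of 7 lower, of the oligodendrocyte markers 1 and 3 of 5, of the microglia markers 3 and 4 of 9, and of the tanycyte markers 0 and 0 of 1, with medians of -0.84, -1.40, -0.55 and 0.28 on the log2 scale. The shares over all genes were 16% higher and 38.7% lower. Between cells with 10 or more *Npy* counts and cells with 0, the microglia markers were 0 higher and 9 of 9 lower. All genes were there 1733 higher and 3451 lower of 8969, and the medians were -3.97 and -0.43. On CD the microglia markers were 0 higher and 7 of 8 lower, against 1574 and 4433 of 8718 genes, with medians of -4.89 and -1.05. Without the 7 genes they were 3 higher and 2 of 9 lower, against 2224 and 2812 of 8965 genes, with 0.22 and -0.10. The astrocyte markers were 0 higher and 6 of 7 lower on HFD, against 2197 and 3512 of 8855 genes, with medians of -2.004 and -0.39. On CD they were 2 higher and 2 of 7 lower, against 1574 and 4433 of 8718 genes, with 0.01 and -1.05. *Rax* and *Nes* of the tanycyte list and *Mog* of the oligodendrocyte list were at 0 in each Ghost cell. Single cells carried several glial ratios, since *C1qb*, of a complement subunit, went from 3.01 to 0.908 without HFD cell 656 and *Gfap*, of an astrocyte filament, from 2.85 to 0.879 without CD cell 664. The part of these markers, of depth and of the 7 genes in the differences above was not tested.

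The Pomc+ cells, which the rule did not use, held *Npy* in 4 of 42 cells, 1 of 23 on CD and 3 of 19 on HFD. Their *Npy* levels ran from 5.28 to 175 CPM, and the highest of them lay below the 6 highest Ghost cells. These 4 were deep cells, with a median of 815800 total counts against 271888 in the 38 Pomc+ cells without *Npy*. *Avp* was counted in 3 of the 4 and 13 of the 38, *Oxt* in 3 and 17, *Sst* in 3 and 10, *Th* in 3 and 8, *Insr* in 3 and 7, and *Slc17a6* in 1 and 9, whereas *Cpe* was counted in 4 of 4 and 34 of 38. *Agrp* had 1 count in 1 of the 4 and counts in 2 of the 38. *Pomc* had means of 5019.5 and 8231 CPM, a ratio of 0.61.

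Across genes the Pomc+ cells did not repeat the Ghost ranking. Of the genes at least 2-fold higher in Ghost cells with *Npy*, 47.9% had a higher mean in Pomc+ cells with *Npy* than without, against 49.1% of those at least 2-fold lower and 48% of all genes. Of the 8 genes named as highest 2 were higher in Pomc+ cells with *Npy*, and of the 8 named as lowest 3. With 4 cells in the smaller set, these shares describe those cells alone.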

How the data were processed

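The 76 libraries were made by the authors with a SMART-Seq single cell kit and Nextera XT from the content of 1 patch pipette each. The submitters' processing notes name cutadapt 2.10, STAR 2.7.5a, DESeq2 and the builds GRCm38 and mm10, without saying which step used which, so no coordinates are given. The deposited raw table holds the authors' counts per gene as whole numbers without normalization, for 56980 Ensembl genes. No molecular identifiers are described, so these are reads, and counting intervals treat them as independent. The deposited normalized signal is the count divided by 1 factor per cell. Symbols matched 52073 of the identifiers.

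CPM are counts scaled to 1000000 per cell. A set with no count was placed at 3 counts over its summed total. Genes needed at least 5 counts in at least 3 Ghost cells. A gene was called at 2-fold, and its share of cells at 25 points. Named were the 4 markers, listed genes counted in at least 10 Ghost cells and past 2-fold, the receptors of NPY, the genes of GABA and glutamate, and 8 genes each way outside the lists. The 18 lists and the members were chosen with earlier results of these data known. No doublet caller was run on these hand-patched cells, and none was left out. Values of 3 listed genes are not reported here. Values were computed with python 3.11.15 and scipy 1.17.1.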

Additional observations from a re-analysis of the deposited data

Results flagged for a closer look

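In the 4 Pomc+ cells with *Npy*, 1 cell stood far from the others in *Agrp*, at 2.54 CPM from 1 count against 0 in the other 3. With the other 3 cells at 0, any count sets a cell apart by this measure, and a single count is at the limit of what these libraries can show.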

How the results depend on the processing

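The share of Ghost cells with *Npy*, 38.2%, was 23.5% at 10 or more counts and stayed within its interval. The *Agrp* ratio of 23.9 was 13.05 in CPM without the 7 genes and 15 on HFD, and 12.8 to 292 with 1 cell left out. The *Pomc* ratio of 0.453 was 0.266 on CD, 0.775 on HFD and 0.292 within blocks, a setting chosen after seeing the data, and 0.384 to 0.590 with 1 cell left out. That of *Cartpt* moved by less than 1.5 times, and was 0.631 to 0.755 with 1 cell left out. The 1432 genes at least 2-fold higher were 2224 without the 7 genes, 714 in normalized values, 2197 on HFD, 2302 without the filter, 413 when counted in at least 10 cells and 1316 to 1707 with 1 cell left out. The 3468 lower genes were 1302 when counted in at least 10 cells and 3314 to 4089 with 1 cell left out. The AgRP list median of 1.71 was 0.34 in normalized values, 0.86 on HFD, 2.77 within blocks, -0.048 on CD, -1.13 when counted in at least 10 cells and -0.83 to 1.83 with 1 cell left out. The Pomc list median of -1.19 was -0.58 at 10 or more *Npy* counts, against -0.43 for all genes, and -1.40 to -0.80 with 1 cell left out. Single genes crossed 1 as follows. On HFD the ratio was 0.067 for *Gfap*, 0.692 for *Pcsk1*, 1.22 for *Otp*, 1.42 for *Cnp*, 1.19 for *Ptprm* and 1.0 for *Sncg*. *C1qb* was 0.023 on CD and 0.38 at 10 or more *Npy* counts. *Tbx3* was 0.95 in normalized values, and *Gad2* was 1.03 with membership at 40000 counts and 1.24 within blocks. With 1 cell left out, *C1qb* ran from 0.908 to 3.85, *Gfap* from 0.879 to 7.49 and *Pcsk1* from 0.942 to 5.42. The causes were not tested. No paired analysis was possible because each cell number occurs once. Depth limits the set without *Npy* most, as 5 of its 21 cells have under 40000 counts.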
